A study of Homo sapiens with 12 samples.

Results

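H3K27ac, the acetylated lysine of histone H3 that marks promoters and enhancers in use, was compared between untreated HCT116 cells and HCT116 cells given cobimetinib at 1 μM for 24 hours. HCT116 is an established human colorectal cancer line. The comparison rests on 4 of the 12 libraries that the labels list: 2 untreated and 2 cobimetinib replicates with the H3K27ac antibody. It asks how the enhancers of these cells respond when signaling through the MAPK cascade is inhibited. All 4 libraries came from the same cell line by CUT&RUN, in which micrococcal nuclease is tethered to an antibody on the chromatin and the DNA it cuts free is sequenced. The 2 H3K27ac libraries of cells given TNFα at 100 ng/ml for 24 hours are used below only as libraries that entered none of the calls, and the 6 immunoglobulin libraries are not analysed here.

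Cobimetinib inhibits MEK1, the kinase that phosphorylates and activates ERK at the end of the RAS, RAF, MEK and ERK cascade. Active ERK leads to the production and stabilization of FOS and JUN family proteins, which pair to form AP1, a transcription factor that binds the word TGAGTCA in many enhancers of epithelial tumor cells. On the other strand this word reads TGACTCA. ERK also induces its own inhibitors, among them the dual-specificity phosphatases (DUSP) and the Sprouty proteins (SPRY), so that genes of this feedback loop are commonly read as a measure of pathway activity. H3K27ac is laid down by the acetyltransferases p300 and CBP, which many bound factors recruit.

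The deposited values are peak scores, one per peak and library, on the scale of minus 10 times the log10 of the p-value that MACS2 gives. The 20000 highest-scoring peaks of each of the 4 libraries were merged within 100 bp into 34757 regions. Each region was then ranked among all of them in each library by its highest score, so that rank 1 is the strongest region and a region without any peak is tied last. A rank therefore gives a region's place within its own library and carries no information on the total amount of acetylation. The nearest protein-coding start site in GENCODE names a region, which does not show that the region regulates that gene.

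Windows of hg38 around the AP1 word are shown first, because the share of regions that hold it differed between the 2 directions of change, as given further on. Capitals mark the AP1 word nearest to the centre of the region, and all windows are on the plus strand. The first 6 come from regions that ranked lower with cobimetinib: an intron of NT5E, the PLK4 promoter, an intron of PHLDB2, the interval between EREG and AREG, a region 9981 bp from the PHLDA1 start site, and an intron of TEAD1. The last 2 come from introns of NEDD4L and B4GALT5, in regions that ranked higher with cobimetinib.
NT5E, chr6:85464281-85464437: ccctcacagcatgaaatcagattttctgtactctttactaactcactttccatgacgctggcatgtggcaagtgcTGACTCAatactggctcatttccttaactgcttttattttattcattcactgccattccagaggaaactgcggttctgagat
PLK4, chr4:127881718-127881874: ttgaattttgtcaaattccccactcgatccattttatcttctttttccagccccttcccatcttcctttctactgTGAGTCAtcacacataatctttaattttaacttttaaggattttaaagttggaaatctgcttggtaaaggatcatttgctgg
PHLDB2, chr3:111923454-111923610: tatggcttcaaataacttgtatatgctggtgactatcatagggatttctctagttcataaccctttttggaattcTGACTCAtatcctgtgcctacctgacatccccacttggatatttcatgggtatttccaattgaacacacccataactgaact
AREG, chr4:74418385-74418541: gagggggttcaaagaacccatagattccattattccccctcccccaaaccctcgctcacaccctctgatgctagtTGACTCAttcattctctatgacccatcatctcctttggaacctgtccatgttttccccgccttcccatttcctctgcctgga
PHLDA1, chr12:76020807-76020963: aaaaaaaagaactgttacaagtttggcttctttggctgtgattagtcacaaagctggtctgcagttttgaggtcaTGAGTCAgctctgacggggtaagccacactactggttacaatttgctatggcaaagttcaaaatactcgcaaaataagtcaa
TEAD1, chr11:12693740-12693896: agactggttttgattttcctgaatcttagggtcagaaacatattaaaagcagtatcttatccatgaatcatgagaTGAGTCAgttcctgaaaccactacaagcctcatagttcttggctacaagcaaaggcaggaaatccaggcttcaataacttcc
NEDD4L, chr18:58268882-58269038: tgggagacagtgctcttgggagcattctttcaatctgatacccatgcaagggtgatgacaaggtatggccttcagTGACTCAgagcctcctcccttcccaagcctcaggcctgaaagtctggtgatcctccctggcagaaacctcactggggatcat
B4GALT5, chr20:49691083-49691239: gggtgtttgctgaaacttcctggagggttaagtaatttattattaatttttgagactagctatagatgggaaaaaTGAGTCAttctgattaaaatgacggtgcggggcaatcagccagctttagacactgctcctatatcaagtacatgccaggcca

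The depth behind the lists is unknown, and 1 of the 4 libraries stood apart. The lists held 86952 peaks in untreated replicate 1, 124771 in untreated replicate 2, 106337 in cobimetinib replicate 1 and 69813 in cobimetinib replicate 2. The last of the 20000 peaks had a score of 70, 44, 63 and 58, respectively, and 7102 peaks of untreated replicate 2 were tied at that score, against 367 to 380 in the other 3. The median width of the 20000 peaks was 379 bp in untreated replicate 2 and 989 to 1265.5 bp in the other libraries. The 2 untreated libraries had a Spearman correlation of 0.316 across the regions, the 2 cobimetinib libraries one of 0.819, and untreated replicate 1 with either cobimetinib library 0.773 or 0.774. Its peak names say that untreated replicate 2 was resequenced and merged, and every result below that needs both untreated libraries rests in part on it. All 8 epithelial markers examined had a region at a start site, against 3 of 14 markers of other cell types, where any of the 4 lists could supply the region. At rank 20000 or better were 5 and 5 of the epithelial promoters in the untreated libraries, and 6 and 8 with cobimetinib. For the other cell types these numbers were 3 and 1, and 1 and 2. The markers of other cell types with a region included PECAM1 and COL1A1, of which the COL1A1 promoter was a strong region at ranks of 2337.5 to 4655. The labels do not say that replicates were separate cultures, so p-values measure the spread between these libraries only.

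Some H3K27ac regions were held by one group alone. Both untreated lists and neither cobimetinib list held 621 regions, 1.79% of all regions, which are called lost here. Both cobimetinib lists and neither untreated list held 1527 regions (4.39%), called gained. All 4 lists held 8591 regions, or 24.7%. The same counts were then taken for the 2 mixed pairings, in which each pair joined an untreated with a cobimetinib library. These gave 1119 and 200 regions, and 1208 and 165 regions. Gains thus outnumbered every mixed count (exact permutation p = 0.167, one-sided, over 6 assignments of 2 against 2 libraries), which is the smallest p the design allows. Losses did not (exact permutation p = 0.667, one-sided). Without untreated replicate 2 the counts were 3251 lost and 1832 gained, and without untreated replicate 1 they were 8800 and 6334. With 1 untreated list left, a loss needs only that list to hold the region, while a gain still needs both cobimetinib lists. Losses and gains then rest on unlike criteria, so no direction is read from their order.

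Ranks of the same regions gave a second view. A region was called a consistent fall when the better of its cobimetinib rank numbers was at least 2 times the worse of its untreated rank numbers, and a consistent rise when the reverse held. There were 625 consistent falls, 1.8% of the regions, and 977 consistent rises (2.81%). Across the falls, the median rank was 3251 and 2585.5 in the untreated libraries and 13257.5 and 13274.5 in the cobimetinib libraries. Across the rises, the medians were 12929 and 20974.5 without drug and 3459 and 3472 with it. These medians follow from the definition and show only the size of the movement. Of the falls, 23.4% were also lost regions, and 27.7% of the rises were also gained regions.

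The mixed pairings gave between 144 and 364 regions with a 2-fold gap. Both groups of calls exceeded this (exact permutation p = 0.333 for falls and 0.167 for rises, one-sided, smallest possible p 0.167). At 4-fold both groups of calls were still above the mixed pairings, with 118 falls and 142 rises against 14 to 52 regions. At 8-fold there were 25 falls and 21 rises, but 23 regions in the pairing of untreated replicate 2 with cobimetinib replicate 2, so the largest gaps were no longer separated from the mixed counts. Without untreated replicate 2 there were 2226 falls and 1425 rises.

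**Figure D1:**
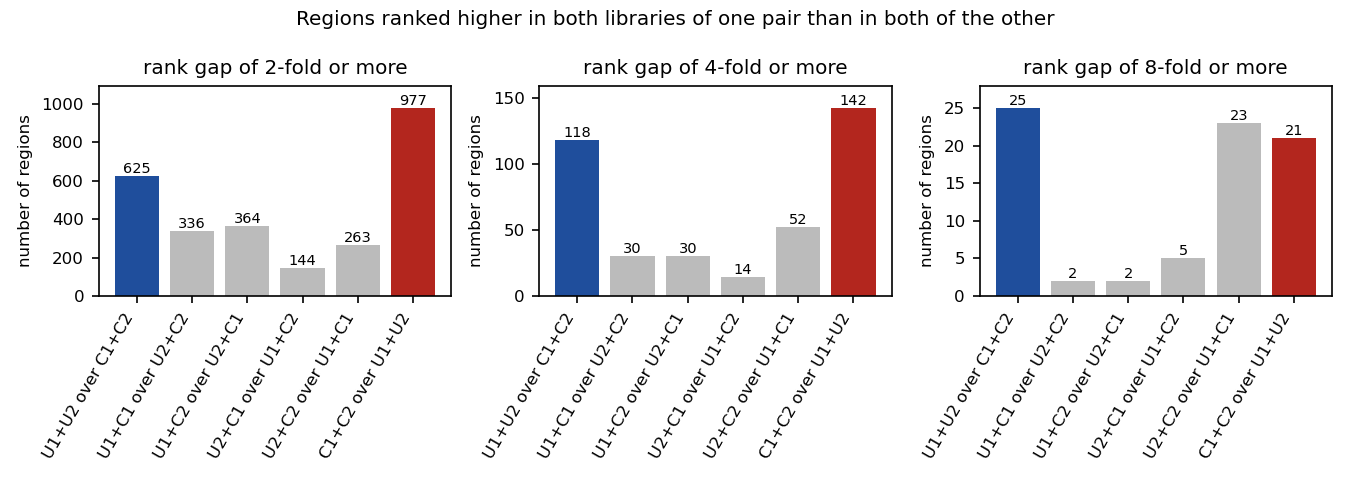
Number of regions (vertical axes, linear from 0) that both libraries of one pair ranked higher than both libraries of the other pair, by at least 2-fold, 4-fold and 8-fold, where U1, U2, C1 and C2 are the untreated and cobimetinib replicates. Blue bars are falls with cobimetinib, red bars are rises and grey bars are mixed pairings, which reach 364 regions at 2-fold against 625 falls and 977 rises, and 23 at 8-fold against 25 and 21.

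Each region was also tested by limma on the normal scores of its ranks, with Benjamini-Hochberg adjustment over all 34757 regions. At an adjusted p under 0.05, 12 regions were lower (0.0345%) and 30 were higher (0.0863%) with cobimetinib. Of the higher regions, 1 was mitochondrial and is not described. At an unadjusted p under 0.05, 875 regions were lower and 1632 higher. The mixed pairings gave 24 and 2 regions, and 3 and 0, so the number of lower regions was not separated from them (exact permutation p = 0.5, one-sided) and that of higher regions was at the smallest p (exact permutation p = 0.167, one-sided). With either cobimetinib replicate left out, limma called 0 regions lower and at most 1 higher, with 194 and 160 regions at an unadjusted p under 0.05 without replicate 1, and 215 and 237 without replicate 2. All 12 lower and all 30 higher regions were also consistent falls or rises.

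The regions named next were the 12 consistent falls and the 12 consistent rises with the widest rank gap among those placed at rank 5000 or better in both libraries of the higher group. They were chosen for this gap, so their ranks are a description.

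Near AGO2, which encodes the slicer Argonaute of RNA interference, an intergenic region at chr8:140645179-140646520, 9546 bp from the start site, had the widest gap among the falls. Its ranks were 1158.5 and 838.5 in untreated cells, 22154.5 and 23199.5 with cobimetinib, and 81.5 and 49 with TNFα. The difference in normal score was -2.3 ± 0.47 (SE; limma adjusted p = 0.00401). By the rule that picked the region, its untreated and cobimetinib ranks could not overlap. Both TNFα libraries placed the region above both groups.

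Near CNTNAP3, a cell adhesion protein of the neurexin family, the region at chr9:39030166-39031271 ranked 148.5 and 885.5 in untreated cells and 15905 and 20537 with cobimetinib (limma adjusted p = 0.000348). CNTNAP3 has close copies in the genome. The authors kept uniquely placed reads only, and how much of this region such reads can cover was not tested. An intron of BTRC, which encodes the ubiquitin ligase subunit that recognizes β-catenin and IκB, held one of the strongest regions of untreated cells (chr10:101367051-101368592), with ranks of 42.5 and 71.5 against 1079.5 and 1459 with cobimetinib (limma adjusted p = 0.0894). With the drug it was still well within the 5000 highest-ranked regions.

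The next falls were intronic or intergenic. The intronic region of NT5E (chr6:85463159-85465590), the ectonucleotidase CD73 that forms adenosine, ranked 1520.5 and 1072.5 in untreated cells and 19039.5 and 22344.5 with cobimetinib (limma adjusted p = 0.0255). A region 7461 bp from COL17A1, a transmembrane collagen of hemidesmosomes (chr10:104093341-104094926), ranked 459.5 and 631 against 16186 and 7163 (limma adjusted p = 0.029). The region 67273 bp from HS3ST1, a sulfotransferase that modifies heparan sulfate, ranked 526.5 and 752.5 against 8814.5 and 11912.5 (limma adjusted p = 0.0609), a gap that did not pass the test.

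The only promoter among the 12 falls was that of PLK4 (chr4:127880186-127881928), the kinase that starts centriole duplication. It ranked 79.5 and 929.5 in untreated cells and 19039.5 and 10966 with cobimetinib (limma adjusted p = 0.0004). The TNFα libraries themselves differed there, with ranks of 480.5 and 6020.5.

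A region 17597 bp from CYTH4, an exchange factor for ARF GTPases (chr22:37327565-37328948), had untreated ranks of 845.5 and 457.5 and cobimetinib ranks of 10469 and 16923 (limma adjusted p = 0.0205). Another, 23305 bp from DHRS7B, a short-chain dehydrogenase (chr17:21098825-21100059), had ranks of 719.5 and 1244.5 against 13844 and 17751 (limma adjusted p = 0.0348). The remaining 3 falls lay near MPRIP, a regulator of myosin phosphatase, near PSD3, an exchange factor for ARF6, and near CCDC71L. Their rank gaps were 14, 10.5 and 10.4-fold, and their limma adjusted p-values were 0.0628, 0.0632 and 0.0632.

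Of the 12 regions that passed limma in this direction, 5 were not among the named falls. The intronic region of PHLDB2 (chr3:111922971-111924457), a protein that anchors microtubules at the cell cortex, had untreated ranks of 395.5 and 2917.5, cobimetinib ranks of 25942.5 and 25182.5 and TNFα ranks of 92 and 92.5 (adjusted p = 0.00335). The other 4 lay at the EIF4A1 and TPRA1 promoters and near TMEM200A and F2RL1, the gene of protease-activated receptor 2. Their adjusted p-values ran from 0.029 to 0.0437.

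Among the rises, the promoter of ABLIM1, an actin-binding LIM protein, had the widest gap (chr10:114684296-114685562). Its untreated ranks were 25732 and 31023, the latter without any peak, and its cobimetinib ranks were 1011 and 918.5 (limma adjusted p = 0.000348). The TNFα libraries placed it at 19663.5 and 20409.5, close to the untreated ranks. This region was also a gained region.

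ELF3, an ETS factor of epithelial differentiation, had 2 rises. The region 42763 bp from its start site (chr1:202056541-202058788) ranked 8476 and 9483 in untreated cells and 426.5 and 265.5 with cobimetinib (limma adjusted p = 0.0205). The region 20471 bp away (chr1:202034249-202036029) ranked 3815.5 and 6513.5 against 426.5 and 255.5 (limma adjusted p = 0.116). Both were thus among the strongest regions of the treated cells, and the first alone passed the test.

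A region 4054 bp from ALPP, the placental alkaline phosphatase (chr2:232385293-232386515), ranked 20786 and 31023 in untreated cells, with no peak in replicate 2, and 1219 and 514 with cobimetinib (limma adjusted p = 0.000348). Neither TNFα library had a peak there. ALPP lies among closely related phosphatase genes. In an intron of NEDD4L, a ubiquitin ligase that acts on the epithelial sodium channel (chr18:58268456-58271081), the ranks were 20100 and 25489 against 234.5 and 1973 (limma adjusted p = 0.000769).

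The GPRC5C promoter, at the gene of an orphan receptor that retinoic acid induces (chr17:74442598-74443624), had untreated ranks of 7902 and 24568 and cobimetinib ranks of 623.5 and 211.5 (limma adjusted p = 0.000607). In an intron of B4GALT5, a galactosyltransferase of glycolipid synthesis (chr20:49690664-49692238), they were 13081 and 26452.5 against 1036 and 558.5 (limma adjusted p = 0.00335). Near TXN2, mitochondrial thioredoxin (chr22:36464834-36465980), they were 12486 and 21792.5 against 1036 and 615.5 (limma adjusted p = 0.0143). In these 3 regions the untreated replicates differed from each other by more than the cobimetinib replicates did.

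The remaining 5 named rises did not pass limma, with adjusted p-values from 0.0553 to 0.107. They lay in introns of JPH2, a junctophilin, and BTBD16, near GUCA1A, and at the promoters of NADK, which makes NADP from NAD, and BOD1L1, a protein of replication fork protection. The NADK promoter ranked 2386.5 and 5341.5 in untreated cells and 230 and 202 with cobimetinib, so that a strong promoter became one of the strongest.

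Limma called another 22 regions higher, of which the following were chosen after their values were seen. A region near MAX, the partner protein of MYC (chr14:65130961-65132187), ranked 19705 and 26452.5 in untreated cells and 234.5 and 3515 with cobimetinib (adjusted p = 0.00428). The FRAT1 promoter, at the gene of a positive regulator of Wnt signaling (chr10:97318659-97319459), ranked 3815.5 and 26452.5 against 666 and 1020.5 (adjusted p = 0.0414). In an intron of RCAN1, an inhibitor of calcineurin (chr21:34544929-34546361), the ranks were 18193.5 and 11703 against 330.5 and 1951 (adjusted p = 0.0339). In an intron of RAP1GAP, which inactivates the GTPase RAP1 (chr1:21638094-21639740), they were 5535.5 and 23132 against 561 and 827.5 (adjusted p = 0.029). Of the 29 higher regions, 12 had no peak at all in untreated replicate 2, against 21.5% of all regions, so that their call rests in part on that library.

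**Figure D2:**
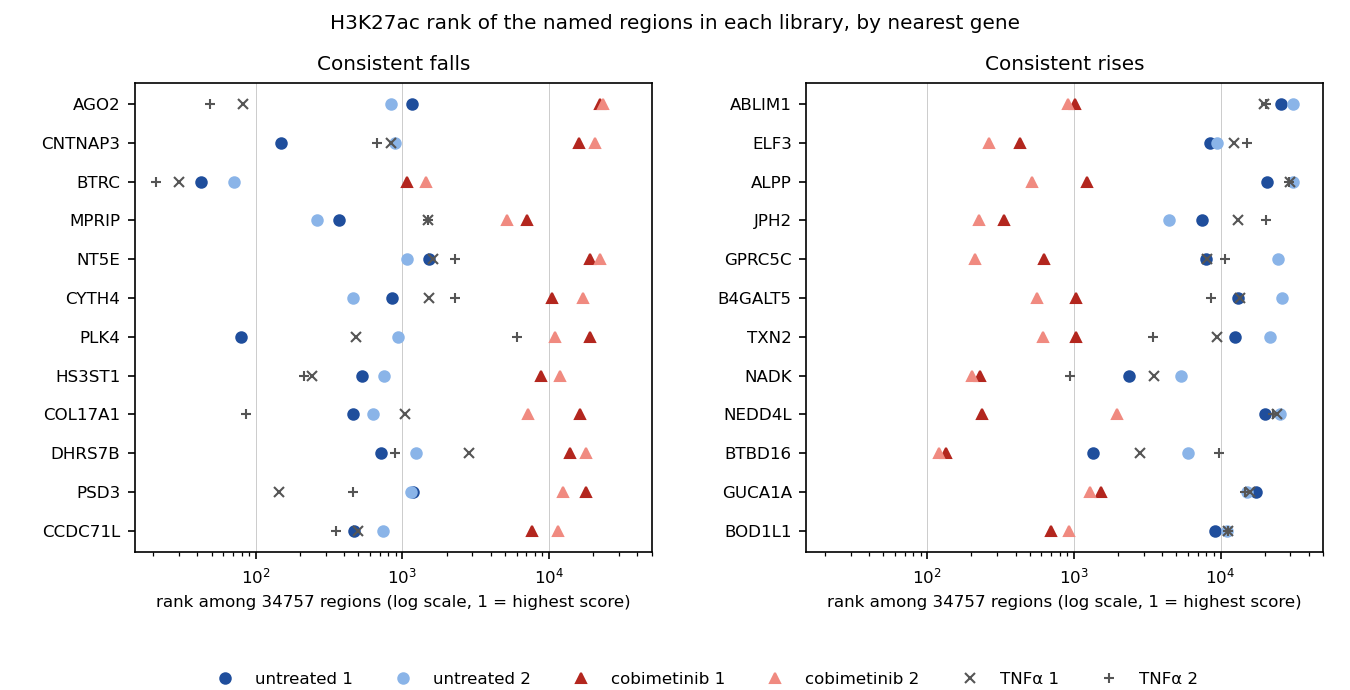
Rank of each named region (horizontal axis, log scale, 1 is the highest score) in the 2 untreated (circles), 2 cobimetinib (triangles) and 2 TNFα libraries (crosses), for the 12 falls on the left and the 12 rises on the right, by nearest gene. Circles and triangles are at least 9.88-fold apart in every row by the choice of regions, and the crosses lie on the side of the circles in most rows.

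The TNFα libraries entered neither the merging nor the calls, so they give a reading of the same regions in other libraries. Both TNFα ranks were better than both cobimetinib ranks in 557 of the 625 falls (89.1%, 95% Wilson interval 86.4 to 91.3%). Both were worse in 868 of the 977 rises (88.8%, 86.7 to 90.7%). In the regions of the mixed pairings, the TNFα ranks were better than both ranks of the lower pair in 42.4 to 72.5%. This range is a gauge for the falls only. Rises were selected for high cobimetinib ranks, and the matching count in mixed pairings was not taken, so their 88.8% has no gauge. TNFα libraries had Spearman correlations of 0.877 and 0.85 with untreated replicate 1 across all regions, of 0.354 and 0.367 with untreated replicate 2, and of 0.732 to 0.756 with the cobimetinib libraries. Across all regions they were thus most like untreated replicate 1 and least like untreated replicate 2. Intervals cover counting error only, and neighbouring regions are not independent.

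Falls and rises differed in where they lay. Promoters, defined as regions with the start of a protein-coding transcript inside or at most 1 kb away, made up 34.7% of all regions, 28.8% of the falls (95% Wilson interval 25.4 to 32.5%) and 41.6% of the rises (38.5 to 44.7%). Intergenic regions were 41.3% of the falls and 26.8% of the rises, against 32.3% overall. The regions of the mixed pairings had promoter shares from 28.1 to 70.3%, a range that includes both values. The called regions were wider than average, with medians of 1607 bp for falls and 1447 bp for rises against 949 bp for all regions.

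With all 4 libraries, the AP1 word was found more often in distal falls than in distal rises. In the central 400 bp of distal regions, on either strand, TGAGTCA was present in 45.2% of the falls (201 of 445, 95% Wilson interval 40.6 to 49.8%) and in 26.1% of the rises (149 of 571, 22.7 to 29.8%). All distal regions had it in 24.3%, and those held by all 4 lists in 35.2%. Strong regions carry the word more often, and distal regions placed at rank 5000 or better in both untreated libraries had it in 36.8% (34.3 to 39.4%), so the falls were above this level too. In the mixed pairings the share was 19.0 to 34.5%. Falls with a 4-fold gap had 45.8% (36.2 to 55.8%). These shares are descriptions of regions in 4 libraries and not tests over replicates. Without untreated replicate 2 the share was 43.4% in falls and 25.8% in rises. Without untreated replicate 1 it was 18.8% in falls and 29.6% in rises, so the order turned when that library was left out.

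The word read backwards, ACTGAGT, served as a reference of the same base composition. It was present in 6.39% of all distal regions, 10.6% of the falls (8.04 to 13.8%) and 5.25% of the rises (3.7 to 7.4%). Both words can overlap in a single site, so the reference is not fully separate from the AP1 word. Next, 4265 strong distal regions were ordered by their mean rank shift in place of the consistent gap. The relation was weaker there and was not separated from the mixed pairings. The 427 regions that moved most toward a higher place with cobimetinib had the AP1 word in 28.1% (24.0 to 32.5%). The 426 that moved most toward a lower place had it in 33.3% (29.0 to 37.9%), and the highest shares, 40.6 and 40.4%, lay between these. The same order was taken for untreated replicate 2 and cobimetinib replicate 2 against the other libraries. There the share was 20.4% at the higher end and 37.6% at the lower end. For untreated replicate 2 and cobimetinib replicate 1 it was 26.7 and 33.1%. Both mixed orders thus had ends farther apart than the treatment order.

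**Figure D3:**
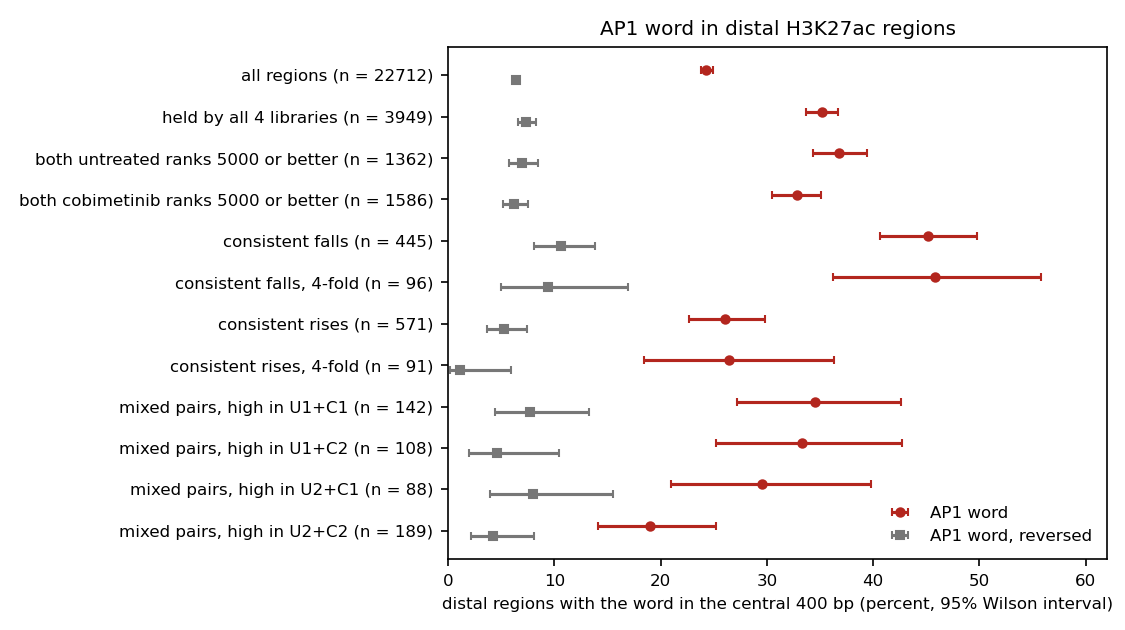
Share of distal regions with the AP1 word (red circles) or the same word reversed (grey squares) in the central 400 bp, in percent with 95% Wilson intervals, for all regions, strong regions, falls, rises and the regions of mixed pairings (n is the number of distal regions). Falls stand at 45.2%, above all regions (24.3%), rises (26.1%) and every mixed pairing (19.0 to 34.5%).

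Another 10 words were searched in the same way, 1 for each of the factor families CRE (TGACGTCA), ETS (CCGGAAGT), TEAD (GGAATG), TCF/LEF (CTTTGAT), FOX (TGTTTAC), HNF4 (CAAAGTCCA), RUNX (TGTGGTTT), GATA (AGATAAGA), SP/KLF (GGGCGG) and the E-box (CACGTG). The RUNX word was present in 6.3% of distal rises (36 of 571, 4.59 to 8.6%), 3.6% of distal falls and 3.74% of all distal regions. Among rises with a 4-fold gap it was present in 13.2% (12 of 91, 7.71 to 21.6%), while the mixed pairings had 0 to 4.93%. The TEAD word was present in 35.7% of the rises and 26.6% of all distal regions, but in 47.1% of the regions that untreated replicate 2 and cobimetinib replicate 2 placed higher. Its share in rises was therefore within the range of the mixed pairings. The GATA word was present in 3.37% of the falls (15 of 445, 2.05 to 5.49%), against 1.88% of all distal regions and 0.704 to 1.14% in the mixed pairings. Falls with a 4-fold gap had it in 6.25% (6 of 96, 2.9 to 13.0%). With this many words searched, the RUNX and GATA values are among several that were looked at and have no test.

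Among the 24 named regions, the AP1 word lay anywhere within 9 of the 12 falls and 6 of the 12 rises. Of the regions that passed limma, 10 of 12 lower and 9 of 29 higher regions held it (83.3 and 31.0%). It lay anywhere within 30.6% of all 34683 regions on the autosomes and chromosome X, and within 42.5% of those 1000 to 2500 bp wide, a range that holds most of the named regions. The falls of NT5E, HS3ST1 and CNTNAP3 had 2 words each, and the region in the TEAD1 intron had 3.

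Genes of the MAPK feedback loop were described from lists drawn up around the pathway, with every region within 50 kb of a start site. The 9 feedback inhibitors of the DUSP, SPRY and SPRED families had 33 such regions, of which 2 were falls and 0 rises (6.06 and 0%, against 1.8 and 2.81% of all regions). Both falls belonged to SPRY4. Its promoter (chr5:142326018-142327352) ranked 3373.5 and 2302 in untreated cells, 15624 and 16649.5 with cobimetinib, and 2261.5 and 3608 with TNFα (limma adjusted p = 0.306). A region 1211 bp from the start site was a lost region, with ranks of 13855 and 11127.5 without the drug and no peak in either cobimetinib library. Neither passed limma, and the share of falls stood on 1 gene.

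The other promoters of the pathway were mixed. DUSP6, the phosphatase that inactivates ERK in the cytoplasm, had promoter ranks of 9636 and 4426 in untreated cells and 14563 and 13504.5 with cobimetinib, which was short of a 2-fold gap (limma adjusted p = 0.73). The promoter of DUSP4, a nuclear ERK phosphatase, ranked 13081 and 27123.5 against 9236 and 6515.5, so that both treated ranks were the better ones, short of a 2-fold gap. The promoter of ETV4, an ETS factor that ERK induces, ranked 14702 and 19993 against 21080.5 and 22344.5. That of PHLDA1, a gene commonly used in scores of MAPK activity, ranked 18705 and 9483 against 19039.5 and 22561. At DUSP6, ETV4 and PHLDA1 both treated ranks were the worse ones, and none of the 3 had a 2-fold gap.

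AP1 and other factors induced by ERK made up a list of 16 genes with 94 regions, of which 3 were falls and 2 rises (3.19 and 2.13%, against 1.8 and 2.81% of all regions). The promoter region of FOSL1, a FOS family subunit of AP1, lay 685 bp from a start site. It ranked 23821.5 and 20475 in untreated cells and 15624 and 12842.5 with cobimetinib. Both treated ranks were the better ones, short of a 2-fold gap, and the region was a gained region. The paper reports lower FOSL1 expression with cobimetinib by RNA-seq, which is a measure other than acetylation. A distal region 11183 bp from FOSL1, nearest to C11orf68 (chr11:65911756-65912799), ranked 6403.5 and 8995 in untreated cells and had no peak in either cobimetinib library (limma adjusted p = 0.168). The promoter of EGR1, an immediate early factor, ranked 2840 and 2055.5 against 3976.5 and 2447, and that of JUN 2776.5 and 8484.5 against 5851.5 and 3095, with groups that overlapped in both genes. At the promoters of the FOS family genes FOS (282.5 and 169.5 against 1165.5 and 298) and FOSB (2864.5 and 688.5 against 3151 and 3176) both treated ranks were the worse ones, short of a 2-fold gap. Promoter ranks at MYC were 10318 and 10616.5 without and 13257.5 and 12274 with cobimetinib (limma adjusted p = 0.88).

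IER3, an early response gene of the same list, had a fall and a rise. So did PHLDA1, which belongs to a separate list of 10 MAPK activity genes. That list had 42 regions with 3 falls and 1 rise (7.14 and 2.38%, against 1.8 and 2.81% of all regions). Its falls include the 2 SPRY4 regions described above. Near PHLDA1 the stronger region, 9981 bp from the start site (chr12:76019494-76021623), ranked 2564 and 973 in untreated cells and 5769 and 10042 with cobimetinib. The weaker region beside it ranked 23821.5 and 24568 against 10797 and 11525.5, a rise that turned direction when scores were summed over a region. Near IER3 the region at 6806 bp ranked 2102.5 and 2302 against 455 and 759.5, and the region at 24064 bp ranked 2989.5 and 1924 against 7639 and 12102.5. An intronic fall of ELK3 (2360 and 1809.5 against 9391 and 8388.5) and a rise in an intron of ATF3 (20391 and 19993 against 7756 and 9162) complete the list of 16 genes.

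The EGFR family and its ligands, which act upstream of RAS, had 3 falls and 1 rise among 48 regions (6.25 and 2.08%, against 1.8 and 2.81% of all regions). The region between EREG and AREG, genes of the ligands epiregulin and amphiregulin (chr4:74417467-74418925), lay 26211 bp from the AREG start site. It ranked 495.5 and 908.5 in untreated cells, 9085 and 8627.5 with cobimetinib, and 1280 and 81 with TNFα (limma adjusted p = 0.107). An intronic region of MTHFD2L, 39041 bp from the ligand gene EPGN, ranked 1098 and 2390.5 against 9391 and 8388.5. The intronic fall of EGFR (chr7:55073175-55075502) ranked 1131.5 and 1331.5 against 4921.5 and 3735. Neither ligand's promoter was a fall. EREG had promoter ranks of 4383 and 6513.5 without and 3227.5 and 1737 with cobimetinib, and AREG ranks of 11384 and 24568 against 21080.5 and 14756.5. The promoter of ERBB3, the receptor that partners with ERBB2, ranked 8279 and 18042.5 against 14065.5 and 9589.5, with overlapping groups. The rise lay at the GRB7 promoter, 9436 bp from ERBB2, with ranks of 3456.5 and 8484.5 against 1241.5 and 1360.

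Genes of the G1 phase, which MAPK signaling drives, had 2 falls and 1 rise among 62 regions (3.23 and 1.61%, against 1.8 and 2.81% of all regions). Both falls were intronic, in CDK6 (1620 and 525 against 5140 and 3867.5) and CCND3 (1968 and 3143 against 8341 and 15014.5), a kinase and a cyclin that pair with each other. At the CCND1 promoter, cyclin D1, the ranks were 25927 and 27007 in untreated cells and 8686.5 and 23914.5 with cobimetinib. The cobimetinib replicates lay far apart there, and replicate 2 was close to the untreated ones. The rise was a promoter region of TAF8, 28 bp from a CCND3 start site (chr6:42050385-42051152), with ranks of 12192 and 26030.5 against 4325.5 and 4400 (limma adjusted p = 0.418). CCND3 thus had both directions at separate regions.

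Genes of intestinal identity had 0 falls and 3 rises among 56 regions (5.36%, against 2.81% of all regions). These were both ELF3 regions and a region 20900 bp from KLF5, a factor of proliferating intestinal epithelium, which ranked 8101.5 and 8484.5 in untreated cells and 3271 and 1826 with cobimetinib (limma adjusted p = 0.73). The promoter of CDX2, the caudal factor that specifies intestine, ranked 20967.5 and 15085.5 against 15905 and 14192. Wnt targets had 0 falls and 2 rises among 42 regions (4.76%). A region 19898 bp from AXIN2, a negative regulator of Wnt signaling (chr17:65515275-65516784), had no peak in untreated replicate 1, rank 21792.5 in replicate 2, and ranks of 3675 and 3259.5 with cobimetinib (limma adjusted p = 0.0824). The other rise, at the SUPT4H1 promoter 9877 bp from an RNF43 start site, had a limma adjusted p of 0.73. It turned direction when scores were summed over a region. Another RNF43 promoter region ranked 13081 and 6513.5 against 11338.5 and 7525.5, with overlapping groups. The promoter of ZNRF3, also on this list, was a lost region short of a 2-fold gap (13081 and 10043 against 20833.5 and 20537). On other lists, the same held for the promoters of CCN1 (17986 and 4864 against 24247 and 24608.5) and of the housekeeping gene RPL13A (14867 and 11703 against 22600.5 and 21312).

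YAP and TEAD targets and partners had 2 falls and 1 rise among 56 regions (3.57 and 1.79%, against 1.8 and 2.81% of all regions). The intronic fall of TEAD1 (chr11:12692530-12695136) ranked 459.5 and 1170 in untreated cells and 3821 and 8627.5 with cobimetinib. WWTR1, which encodes TAZ, had both directions at separate start sites. One promoter ranked 2360 and 4426 against 13844 and 13274.5 (chr3:149575438-149576831), and another ranked 23821.5 and 23132 against 6399 and 3642 (chr3:149735919-149737101). Invasion and adhesion genes had 1 fall and 2 rises among 73 regions (1.37 and 2.74%), of which the fall, at the UNK promoter 27047 bp from ITGB4, went from ranks of 161 and 250.5 to 614.5 and 639.5.

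Antigen presentation and interferon genes had 0 falls and 2 rises among 48 regions (4.17%, against 2.81% of all regions). A region 6149 bp from IRF1, an interferon regulatory factor, ranked 10318 and 2814 in untreated cells and 1260 and 1347 with cobimetinib. The 14 genes at the LTR10 loci that the study examined had 58 regions with 1 fall (1.72%, against 1.8% of all regions) and 0 rises. These regions lay within 50 kb of the start sites of the genes. The LTR10 elements themselves can lie farther away and were not examined, so the count does not describe them. The fall lay 34517 bp from the microRNA host gene MIR222HG (chrX:45709311-45711663), with ranks of 1781 and 499 in untreated cells and 13549.5 and 10348.5 with cobimetinib (limma adjusted p = 0.0979).

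Lists without a known tie to MEK had calls as well. Housekeeping genes had 0 falls and 5 rises among 68 regions (7.35%, against 2.81% of all regions), the highest share of rises of any list, and markers of other cell types had 0 falls and 3 rises among 56 (5.36%). The median shift of these lists, as the log2 of the rank number with cobimetinib minus that without, was -0.4 and 0.02, against 0.05 for all regions and -0.12 to 0.03 for the MAPK lists. Epithelial markers had 2 falls and 1 rise among 58 regions (3.45 and 1.72%). One fall lay 19981 bp from CDH1, at the TANGO6 promoter, and another 40400 bp from KRT18 and 42188 bp from KRT8. The CDH1 promoter itself was a gained region short of a 2-fold gap. It ranked 25869.5 and 31023 in untreated cells, the latter without a peak, and 9830.5 and 14507.5 with cobimetinib. The strong promoter of KRT8 ranked 1054.5 and 320 against 1501.5 and 2274.5. With counts of 0 to 5 per list, nothing particular to a list is read from these shares, and of all list regions only the ELF3 region at 42763 bp passed limma.

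**Figure D4:**
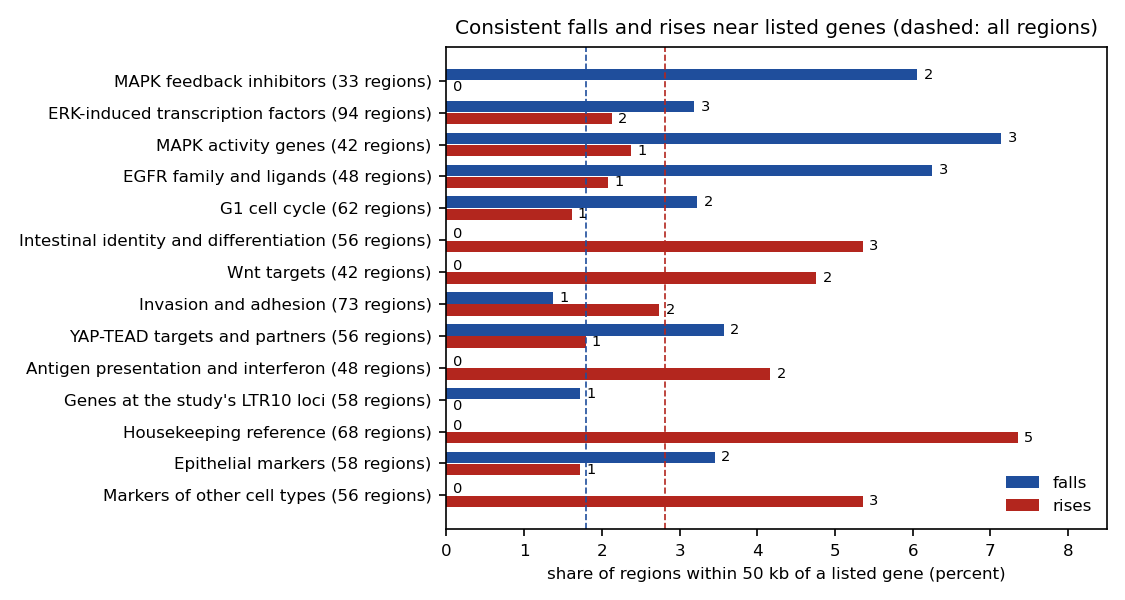
Share of regions within 50 kb of a listed gene that were consistent falls (blue bars) or rises (red bars), in percent, with the number of regions written at each bar and the shares of all regions, 1.8 and 2.81%, as dashed lines. The 3 lists closest to MAPK signaling and the EGFR family have 2 or 3 falls each, and the housekeeping list has 5 rises. Lists can share genes, and the same 2 SPRY4 falls are counted in both the feedback inhibitor and the MAPK activity list.

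**Figure D5:**
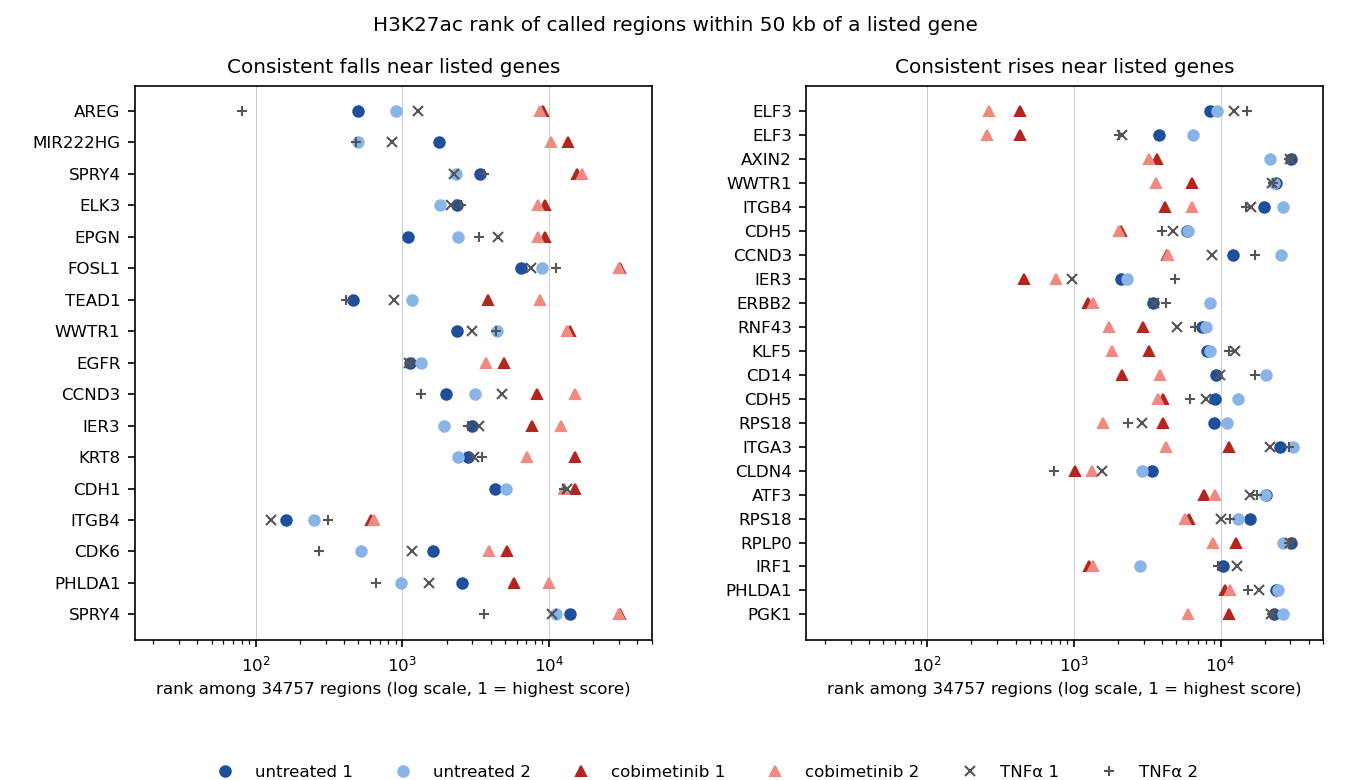
Rank (horizontal axis, log scale, 1 is the highest score) of 17 falls and 22 rises within 50 kb of a listed gene in the untreated (circles), cobimetinib (triangles) and TNFα libraries (crosses), ordered by the size of the gap. The widest gaps are those of AREG (9.5-fold) among the falls and ELF3 (19.9 and 8.95-fold) among the rises.

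Some genes had several called regions within 100 kb, and those with at least 3 in one direction were chosen after their values were seen. PHLDB2 had 4 falls and 2 rises among 18 regions. The 4 falls lay inside the gene between chr3:111901863-111904108 and chr3:111935262-111937664. Beside the region described above, their untreated ranks were 150.5 to 631, their cobimetinib ranks 1973 to 12449 and their TNFα ranks 43 to 107. The gene thus held some of the strongest regions of untreated cells, and the TNFα libraries placed all 4 at rank 107 or better. Both rises lay in the neighbouring gene PLCXD2, with cobimetinib ranks of 1516.5 to 4669.5.

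TANGO6, a gene of Golgi organization beside CDH1, had 4 falls and 0 rises among 17 regions. The strongest, in an intron (chr16:68921257-68924223), ranked 313 and 329.5 in untreated cells and 5140 and 3303 with cobimetinib, a 10-fold gap (limma adjusted p = 0.173). SMAD3, a transducer of TGFβ signaling, had 3 falls among 16 regions. An intronic region (chr15:67106169-67108023) ranked 194.5 and 598.5 against 4196 and 2696.5, and another (chr15:67075833-67076620) ranked 8003 and 8484.5 against 21518.5 and no peak. The 3 falls near MPRIP, among 8 regions, lay within chr17:17014388-17029317, and the 3 falls near PSD3 lay 42617 to 55546 bp from a start site. In the other direction, ADCY9, AHRR, CUX1 and PTPRE had 3 rises each and 0 falls, among 6 to 25 regions. The strongest of these, in an intron of ADCY9, an adenylyl cyclase, ranked 10065.5 and 10616.5 in untreated cells and 1932 and 1099 with cobimetinib (limma adjusted p = 0.282). Regions of one gene share a locus and are not independent of each other, and apart from the PHLDB2 region none of those in this paragraph or the last passed limma.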

How the data were processed

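H3K27ac CUT&RUN was profiled in HCT116 cells, with 2 libraries per condition. Per the study's methods and the submitters' processing notes, reads were aligned to hg38 with BWA 0.7.15 and reduced to those that map to a single place, and the authors called peaks in each library separately with MACS2 2.1.1, without an immunoglobulin background, in paired-end and in single-end mode. They merged both lists and kept the higher score. The deposited score is a whole number of at least 20, which stands for a p-value of 0.01, and it rises with depth, so it was used only to rank regions within a library. Read counts were not used here, so the study's comparison of counts was not repeated.

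The 20000 highest-scoring peaks of each of the 4 libraries, with ties in a seeded random order, were merged within 100 bp. A library held a region when 1 bp of such a peak overlapped it. Ranks were taken over all regions from all deposited peaks, and normal scores of the ranks were fitted with limma 3.58.1 (trend and robust variance, Benjamini-Hochberg adjustment over all regions, threshold 0.05). Counts were compared over the 6 ways to call 2 of the 4 libraries untreated by an exact permutation test, one-sided. The limma step was tested on simulated data. Positions came from GENCODE 44 and sequences from hg38, whose chromosome lengths contain all peak ends. Named regions were the 12 falls and 12 rises with the widest gap, 1 per nearest gene, at rank 5000 or better in both libraries of the higher group, plus called regions of listed genes and the promoters of FOSL1, DUSP6, SPRY4, ETV4, PHLDA1, MYC, ERBB3 and CDX2. The comparison, the gene lists and the words searched were chosen with earlier results of these data known. Some regions and 1 sequence are not reported here. The labels do not say whether replicate numbers pair the libraries. The replicate differences of both groups had a correlation of 0.0546 across regions. This value cannot settle the question, because untreated replicate 2 stood apart from the other libraries. Alternatives changed the list length, the tie rule, the overlap, the rank, the fit and the libraries.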

Additional observations from a re-analysis of the deposited data

How the results depend on the processing

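Depth is unknown and only 2 libraries stand behind each group, which limits every count here. Lists of 10000 peaks gave 1012 gained regions and 31 lower by limma, with the AP1 word in 30.1% of distal rises, and lists of 40000 gave 2449 gained regions, 972 falls, 2144 rises, 27 lower and 52 higher regions and the word in 20.7% of distal rises. Requiring peaks to cover 50% of a region gave 304 lost regions, and counting a region as absent only outside 40000 peaks gave 127 lost and 373 gained. Ranking the best peak in the deposited list gave 1061 falls and 2092 rises, with the AP1 word in 22.2% of distal rises, and a 4-fold gap gave 118 falls and 142 rises. The limma fit called 46 lower and 114 higher regions on quantile-normalised log2 scores, 4 and 6 among the best 20000 regions, and 0 and 0 with library quality weights, where 466 and 761 had an unadjusted p under 0.05. Taking the replicate number as a replicate block gave 5 lower and 13 higher regions, and whether the numbers mark paired libraries is not known. No such fit exists for the counts of lost, gained, fallen and risen regions. Other tie rules and summed scores kept all counts within 1.5 times the main value. When one library was left out, the range was 1147 to 8800 lost and 1832 to 6334 gained regions, 1109 to 5380 falls, 1425 to 3979 rises, 0 to 8883 lower and 0 to 7320 higher regions by limma, and 18.8 to 44.7% of distal falls with the AP1 word. The highest of the counts came without untreated replicate 1, which leaves untreated replicate 2 to stand for its group, and in each such fit the lone library is assumed to vary like the other group. Of 89 called regions traced across alternatives, the log2 gap was reversed in 2 with summed scores: a region near PHLDA1 (-1.23) and one near RNF43 (-1.36). The causes were not tested.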
